A study of Helianthemum marifolium subsp. andalusicum and Helianthemum marifolium subsp. marifolium and Helianthemum marifolium subsp. molle with 16 samples.

Results

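The adult leaves of 2 subspecies of the rockrose Helianthemum marifolium, subsp. andalusicum and subsp. marifolium, were compared through the counts of their assembled transcripts. All 8 libraries labelled with these names were used, 4 of each subspecies, of 16 libraries in the series. The other 8 libraries, 4 of subsp. molle and 4 labelled Helianthemum origanifolium (here origanifolium), took no part in the choice of clusters and are used only to place the differences. No library carried a treatment or a transgene. The labels describe plants raised from scarified seed in soil, sand and perlite under natural daylight, in a greenhouse held at 22 °C by night and 25 °C by day with 40 to 60% humidity. Leaves of nodes 3 to 5 from the apex were taken 446 days after sowing, and libraries were made from poly-A selected RNA. Library titles carry a code and a number: andal260 (numbers 1 and 3) and andal261 (6 and 8) in andalusicum, and marif085 (12 and 15) and marif089 (17 and 18) in marifolium. The labels do not explain what a code stands for. A code occurs in a single subspecies, so a difference between subspecies and one between seed sources or other groupings marked by the codes cannot be told apart. Whether each library is a plant of its own is not stated in the labels, and the p-values below reflect only how much these libraries vary, which may be technical.

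Rockroses of this genus are dwarf shrubs of the Mediterranean flora, and subspecies of one species may differ both in how strongly a shared gene is transcribed and in which gene copies or alleles their transcripts come from. Without a reference genome, reads are joined into transcripts by an assembler, and similar transcripts are gathered into clusters that stand in for genes. When the sequence of a gene differs between subspecies, its transcripts may be assembled separately and fall into separate clusters. A cluster at 0 in one subspecies may therefore lack expression there, or its reads may lie under another cluster, and these cannot be told apart from counts. The files used here pair no cluster with a gene name or a sequence, so clusters are described by level, by the length of their assembled transcript where its name records one, and by what the other subspecies showed. For the same reason the labelled tissue could not be checked against leaf markers.

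Each library held between 26934329 and 32678473 counts, with a mean of 29880497 ± 2508059 in andalusicum and 30478222 ± 947334 in marifolium (SD, n = 4 each). Of 100462 clusters, 87696 had a count in at least 1 of the 8 libraries, and 35119 had 10 or more counts in at least 4 of them and were tested. The tested clusters held 95.1 to 98.7% of the counts of each library. Levels are given as CPM, a count scaled to a common library size by the library's deposited total. A total of 3 counts in a library, taken as the limit that a count of 0 allows, was worth 0.0918 to 0.111 CPM, and this limit covers counting error only. No pair of libraries of one subspecies was alike within sampling noise, the lowest chi-square per degree of freedom being 123.9. Marifolium 12 and 18 were examined for clusters of their own. In 4603 clusters over 95% of the 8-library counts lay in these libraries, and these clusters took 1.37% of the counts of marifolium 12 and 2.48% of marifolium 18. Of them, 12 entered the test and 2 were called. Other pairs of libraries were not examined in this way. Results that rest on marifolium 12 and 18 are also given without them.

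Distances between whole leaf profiles were computed first (the root mean square log2 difference over the tested clusters). Libraries of different subspecies lay 2.39 ± 0.158 apart (SD over 16 pairs, range 2.14 to 2.60). Within andalusicum, pairs with the same code lay 1.55 and 1.86 apart, and the 4 pairs with different codes 1.89 ± 0.0515 apart. Within marifolium, pairs with the same code lay 1.85 and 2.27 apart, and the 4 pairs with different codes 2.19 ± 0.0511 apart. Marifolium 12 lay closer to 15 (1.85) than to 18 (2.13), so 12 and 18 did not form a pair of their own by this measure. Every pair of andalusicum libraries was closer than any pair across subspecies, whereas the marifolium pairs reached into the range of pairs across subspecies. Pairs share libraries, so these values are a description without a test.

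**Figure D1:**
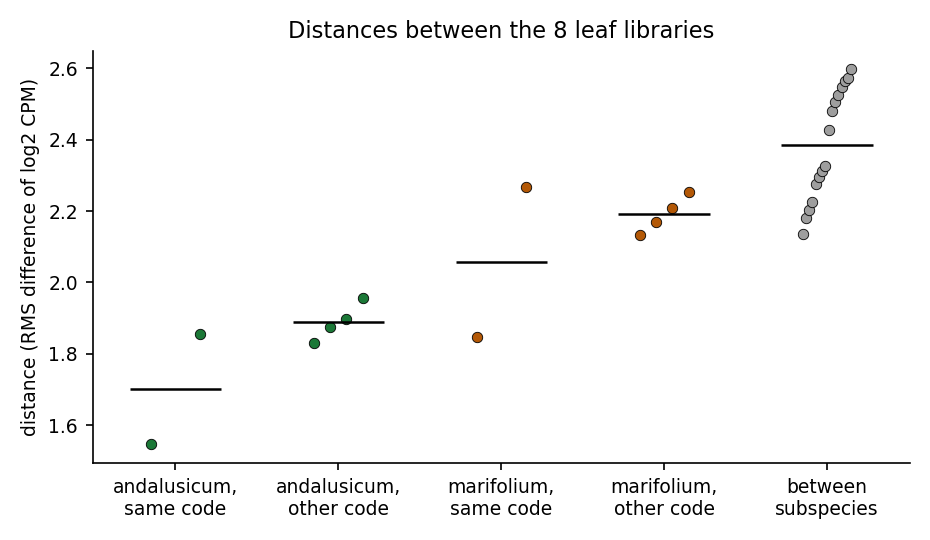
Distance between pairs of the 8 leaf libraries (root mean square log2 difference over 35119 tested clusters; y axis, log2 units), with 1 point per pair, grouped by whether the pair shared a title code, a subspecies or neither; lines are means. Andalusicum pairs lie between 1.55 and 1.96, and the 16 pairs across subspecies lie between 2.14 and 2.60, a range that the marifolium pairs enter.

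Of the 35119 clusters tested, 932 (2.65%) differed between the subspecies at an adjusted p under 0.05 (edgeR quasi-likelihood test with Benjamini-Hochberg adjustment), 579 higher and 353 lower in andalusicum. These calls fall into classes that differ in kind. In 385 of the 579 higher clusters all 4 marifolium libraries stood at 0, and in 181 of the 353 lower clusters all 4 andalusicum libraries stood at 0. A further 104 called clusters had 1 to 9 counts in total on their lower side, 71 of them higher and 33 lower. The remaining 262 called clusters had 10 or more counts in total over the 4 libraries of each side, and are here termed measured on both sides. Where the lower side held few counts, such a cluster could enter the test through its higher side alone. The 262 made up 0.769% of the 34079 such clusters tested, with 123 higher (0.361%) and 139 lower (0.408%) in andalusicum. With any count above 0 on each side accepted, 366 of 34396 clusters (1.06%) were called. The excess of higher over lower calls thus lay in the clusters at or near 0 in one subspecies, and the clusters measured on both sides were split nearly evenly with all 8 libraries. That even split depended on the libraries: it was 72 higher and 41 lower without marifolium 12, 94 and 63 without 15, 65 and 60 without 17 and 62 and 38 without 18, but 39 and 44 without andalusicum 1, 28 and 48 without 3, 29 and 33 without 6 and 24 and 36 without 8. The size of the count depended strongly on the test and on which clusters entered it. With the clusters at 0 on one side left out before testing, 68 of 34396 clusters (0.198%) were called, 40 higher and 28 lower. All of them were among the 932, and 49 were among the 262, 25 higher and 24 lower. Most of the 262 were thus called only under an adjustment shared with clusters at 0 on one side, which had to differ. DESeq2, run on the same counts, called 2387 of the 34442 clusters to which it gave an adjusted p (6.93%).

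Differences between the mean levels were larger in weakly than in strongly expressed clusters. The median absolute log2 difference of clusters with 10 or more counts on each side was 0.97 under 1 CPM, 0.77 at 1 to 10 CPM, 0.35 at 10 to 100 CPM, 0.29 at 100 to 1000 CPM and 0.24 above. Most of these differences did not pass the test, and 3329 of the 34079 clusters had an unadjusted p under 0.05. The libraries of the subspecies did not overlap in 1719 clusters that were higher and 1141 that were lower in andalusicum, and 121 of the 123 and 138 of the 139 called clusters were among these. The calls came mainly from moderately and strongly expressed clusters. None of 5771 clusters with a mean under 1 CPM was called, against 69 of 15324 (0.450%) at 1 to 10 CPM, 161 of 11272 (1.43%) at 10 to 100 CPM, 31 of 1639 (1.89%) at 100 to 1000 CPM and 1 of 73 (1.37%) at 1000 CPM or more. The 100 most abundant clusters, which held 21.1% of the andalusicum counts and 20.8% of the marifolium counts, contained 1 called cluster. The median absolute log2 difference of these 100 was 0.29, and 5 of them differed by more than 2-fold. Most of the dominant transcripts of the leaf were thus close in mean level in both subspecies. The spread between libraries was wide, and the biological coefficient of variation fitted over the 8 libraries was 91.9%.

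**Figure D2:**
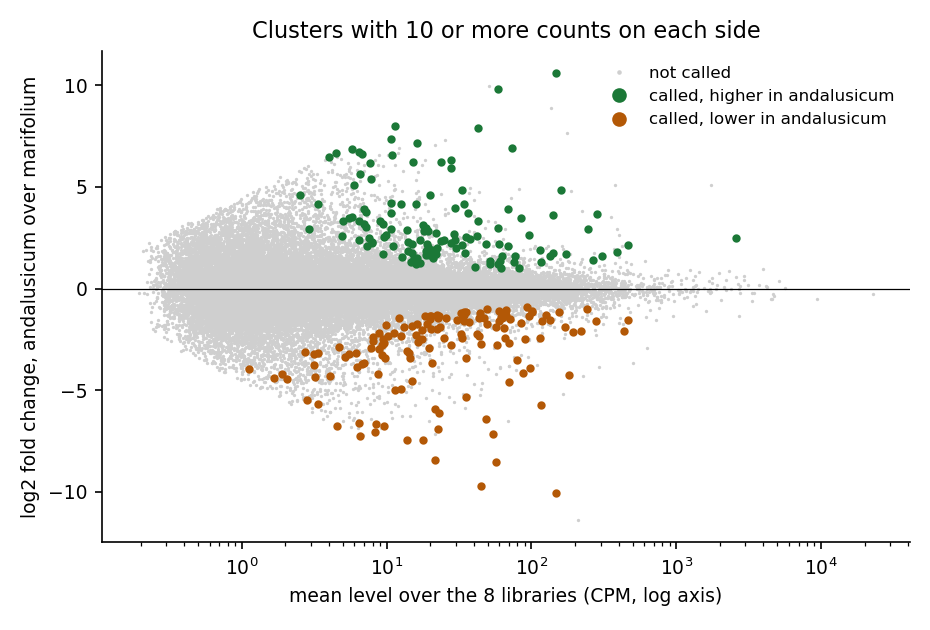
Log2 difference between andalusicum and marifolium (y axis) against mean level in the 8 libraries (x axis, CPM, log axis) for the 34079 tested clusters with 10 or more counts on each side, 1 point per cluster, with the called ones in colour. Above 0 lie 123 called clusters and below 0 lie 139, and all have a mean of 1 CPM or more.

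The 123 higher clusters differed by 1.00 to 10.60 on the log2 scale with a median of 2.59, from a median of 5.42 CPM in marifolium to 32.1 CPM in andalusicum. The 139 lower clusters differed by 0.92 to 10.07 with a median of 2.45, from a median of 37.4 CPM in marifolium to 6.76 CPM in andalusicum. The lower side was itself expressed at 1 CPM or more in 95 of the 123 and 105 of the 139 clusters, and at 10 CPM or more in 38 and 60 of them. Together the higher clusters took 1.40 ± 0.188% of the andalusicum counts and 0.269 ± 0.0227% of the marifolium counts. The lower clusters took 0.271 ± 0.0122% and 1.08 ± 0.0595% (SD, n = 4 each). These shares describe clusters chosen by this contrast and carry no test. In either subspecies the clusters that were high there thus made up a little over 1% of the RNA counted.

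Among the higher clusters, the smallest p belonged to Cluster-3823.53041. It stood at 61.8, 38.1, 67.7 and 53.2 CPM in andalusicum libraries 1, 3, 6 and 8, and at 0.823, 1.13, 0.455 and 1.02 CPM in marifolium libraries 12, 15, 17 and 18. The groups were far apart, with little spread within either. The fitted log2 difference was 5.92 ± 0.42 (SE; edgeR adjusted p = 0.00144). In molle the cluster stood at 133, 120, 101 and 73.3 CPM, above each andalusicum library, while in origanifolium it stood at 0.226, 0, 0.0760 and 3.995 CPM. Molle was thus high with andalusicum, at a mean of 107 ± 26.1 against 55.2 ± 12.9 CPM, and origanifolium was low with marifolium. In a cluster with a transcript of 1895 nt, molle was again high and origanifolium low, at a smaller difference. It stood at 56.0, 43.3, 60.0 and 43.6 CPM in andalusicum and at 6.96, 6.26, 8.71 and 9.03 CPM in marifolium. Molle stood at 62.1 ± 4.70 CPM and origanifolium at 8.17 ± 6.15 CPM, and the molle mean was above the andalusicum mean of 50.7 ± 8.55 CPM. Its log2 difference was 2.67 ± 0.23 (edgeR adjusted p = 0.00274).

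A different arrangement was found in the higher cluster with the second smallest p, which was high in andalusicum and low in the other subspecies. It stood at 61.1, 66.3, 63.9 and 29.5 CPM in andalusicum, where library 8 was below the other libraries. In marifolium it stood at 0.348, 0.960, 0.682 and 0.614 CPM. Molle stood at 2.54 ± 2.16 CPM and origanifolium at 0.355 ± 0.0875 CPM (SD, n = 4), both far under andalusicum. The log2 difference between andalusicum and marifolium was 6.34 ± 0.47 (edgeR adjusted p = 0.00160). These 3 clusters lost their call only with the 2 libraries of a code summed, at adjusted p-values of 0.0953 to 0.143, an alternative that left 2 libraries a side and under which no cluster was called. Without marifolium 12 and 18 their adjusted p-values were 0.0255 to 0.0285.

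The most abundant cluster of the higher class stood at 3278, 6193, 4803 and 3223 CPM in andalusicum and at 870, 990, 440 and 748 CPM in marifolium. It was the only called one among the 100 most abundant clusters. Every andalusicum library was above every marifolium library, with a wide spread on both sides. Its log2 difference was 2.47 ± 0.42 (edgeR adjusted p = 0.0271). Leaving out andalusicum 1, 3, 6 or 8 or marifolium 12 or 18 singly ended the call, at adjusted p-values of 0.0501 to 0.0705. Its adjusted p was 0.159 without marifolium 12 and 18 together. With all 8 libraries, it was 0.0687 once clusters at 0 on one side were left out, and 0.0564 in an edgeR test against a 2-fold change. The call was lost in 10 of 20 alternatives. The abundant cluster next described was steadier: it stood at 661, 561, 819 and 392 CPM in andalusicum and at 154, 140, 185 and 190 CPM in marifolium. Molle stood at 729 ± 221 CPM and origanifolium at 143 ± 29.5 CPM, so that molle was again high and origanifolium low, as for Cluster-3823.53041. The log2 difference was 1.82 ± 0.25 (edgeR adjusted p = 0.0135), with 0.107 without marifolium 12 and 18.

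The fitted change was greatest where the marifolium side held a few counts. The greatest belonged to a cluster at 92.0, 335.7, 371 and 384 CPM in andalusicum and 0.222, 0, 0.552 and 0 CPM in marifolium, with a log2 difference of 10.60 ± 1.201 (edgeR adjusted p = 0.00612, and 0.0658 without marifolium 12 and 18). In molle it stood at 0, 0, 3288 and 25.0 CPM, and in origanifolium at 0, 2.01, 0 and 55.0 CPM. This transcript was therefore abundant in some libraries of a subspecies and at 0 in others, and in a single molle library it was far above every andalusicum library. With all 16 libraries in the fit, its adjusted p was 0.11.

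Among the lower clusters, the smallest p belonged to Cluster-3823.67090. It stood at 0.831, 0.644, 1.74 and 1.499 CPM in andalusicum and at 94.8, 113, 87.6 and 89.6 CPM in marifolium. The marifolium libraries were close to each other and far above andalusicum. The log2 difference was -6.40 ± 0.41 (edgeR adjusted p = 0.000982, and 0.0138 without marifolium 12 and 18). Molle stood at 1.40 ± 0.797 CPM and origanifolium at 0.899 ± 0.516 CPM (SD, n = 4), so this transcript was high in the marifolium libraries and near the andalusicum level in both other subspecies. It lost its call in 1 of 20 alternatives, the sum of each code, at an adjusted p of 0.121.

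The lower cluster with the second smallest p was low in andalusicum and high in the other subspecies. It stood at 23.8, 18.5, 19.8 and 15.9 CPM in andalusicum and at 100.01, 99.2, 131 and 155 CPM in marifolium. Molle stood at 118 ± 35.7 CPM, within the marifolium range or close to it, and origanifolium at 66.8 ± 8.79 CPM, between the 2 subspecies compared. The log2 difference was -2.67 ± 0.24 (edgeR adjusted p = 0.00274). A cluster with a transcript of 1825 nt placed the other subspecies on opposite sides. It stood at 10.1, 7.41, 7.17 and 7.59 CPM in andalusicum and at 49.3, 37.8, 39.6 and 39.8 CPM in marifolium, with molle at 9.66 ± 1.15 CPM and origanifolium at 32.9 ± 1.51 CPM. Its log2 difference was -2.41 ± 0.24 (edgeR adjusted p = 0.00394, and 0.051 without marifolium 12 and 18).

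The most abundant of the lower clusters stood at 179, 182, 181 and 144 CPM in andalusicum and at 399, 854, 830 and 718 CPM in marifolium. All 4 marifolium libraries were above all 4 andalusicum libraries. Molle at 289 ± 152 CPM and origanifolium at 269 ± 98.0 CPM lay between them. The log2 difference was -2.07 ± 0.30 (edgeR adjusted p = 0.0154), and the adjusted p was 0.0515, 0.0556 and 0.0583 without andalusicum 1, 6 and 8. The next in level, a transcript of 725 nt, stood at 217, 234, 292 and 219 CPM in andalusicum and at 442, 577, 935 and 810 CPM in marifolium, and its highest mean was in origanifolium at 922 ± 175 CPM. Its log2 difference was -1.54 ± 0.27 (edgeR adjusted p = 0.0295). Leaving out any one andalusicum library, or marifolium 15, 17 or 18, ended its call, at adjusted p-values of 0.05 to 0.0844. With clusters at 0 on one side left out its edgeR adjusted p was 0.0750, and its call was lost in 11 of 20 alternatives.

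**Figure D3:**
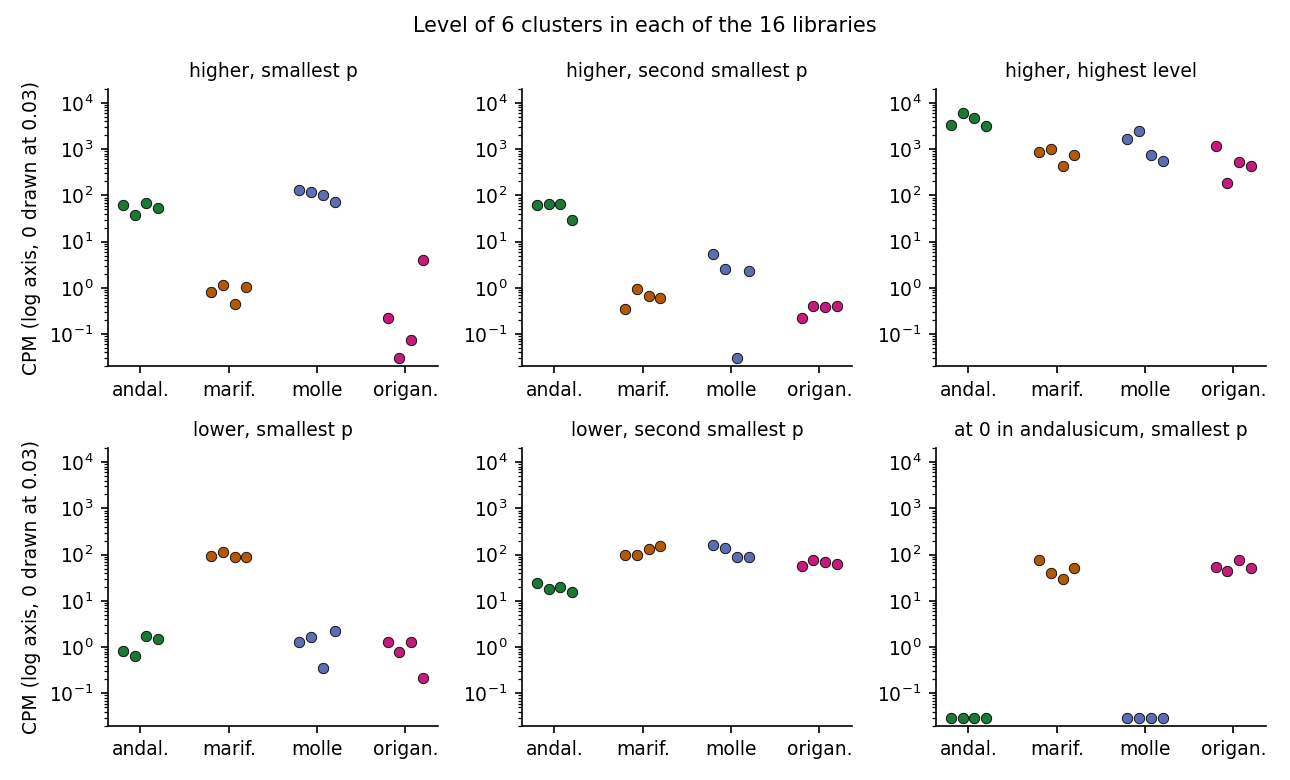
Level of 6 clusters in each of the 16 libraries (y axis, CPM, log axis, with a 0 drawn at 0.03), 1 point per library, grouped by subspecies. The higher cluster with the smallest p is high in andalusicum and molle, its counterpart among the lower clusters is high in marifolium only, and the cluster at 0 in all andalusicum libraries is also at 0 in all molle libraries.

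Clusters at 0 in a whole subspecies were treated apart, since no fold can be given and since being at 0 in 4 libraries fixes the direction. In all, 510 tested clusters were at 0 in the 4 marifolium libraries and 213 at 0 in the 4 andalusicum libraries. The edgeR test called 385 of the former and 181 of the latter, but such clusters pass the filter only through the side where they are found and had to differ: all 510 and all 213 had an unadjusted p under 0.05. Their p-values are given below only to order them. The same limit holds for their p-values with libraries left out or with every library of the series in the fit. For these clusters no such value tests whether the difference holds, since the filter had fixed it. Their mean level on the side where they were found ran from 0.389 to 55.2 CPM with a median of 2.43 in andalusicum, and from 0.611 to 119 CPM with a median of 3.67 in marifolium. In andalusicum 58 of the 510 reached 10 CPM and 4 reached 50 CPM, and in marifolium 24 of the 213 reached 10 CPM and 1 reached 50 CPM. They took 0.224 to 0.266% of the counts of an andalusicum library and 0.103 to 0.191% of those of a marifolium library. With 3 counts over the 4 libraries as the floor of the side at 0, the median difference came to at least 98.6-fold higher levels in andalusicum for the 510 clusters, and at least 146.1-fold higher levels in marifolium for the 213. Many of these clusters were uneven within the subspecies that had them: the highest library exceeded the lowest by 10-fold or more in 77 of the 510 and in 74 of the 213, and by less than 2-fold in 66 and 9. Over the 8 libraries, the side at 0 included, their median level was 1.21 CPM for the 510 and 1.83 CPM for the 213. For all tested clusters it was 4.95 CPM. The assembled transcripts of the clusters at 0 on one side were short, and the part of level in this was not tested. Where a name records the length, its median was 892.5 nt for 192 of the clusters at 0 in marifolium and 869 nt for 109 at 0 in andalusicum, against 1392.5 nt for all tested clusters and 1516.5 nt for 104 of the 262 called on both sides.

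Among clusters at 0 in marifolium, the highest mean belonged to Cluster-3823.48151, at 75.6, 18.5, 66.2 and 60.4 CPM in andalusicum, 6514 counts in all. It was counted in 1 molle library, at 9.01 CPM, and in 1 origanifolium library, at 1.48 CPM. It was at least 2242-fold higher in andalusicum (edgeR adjusted p = 0.00394, and 0.0255 without marifolium 12 and 18). The smallest p of this class belonged to a transcript of 1644 nt at 70.3, 53.4, 44.7 and 36.4 CPM in andalusicum, at least 2080-fold higher than in marifolium (edgeR adjusted p = 0.00161). It was found in molle 27 at 27.1 CPM and at 0 in the other molle libraries and in all origanifolium libraries, and with all 16 libraries in the fit its adjusted p was 0.0788. A transcript of 1994 nt stood at 24.6, 24.2, 37.8 and 26.9 CPM in andalusicum, a narrow range, and was at 0 in molle and at 7.002 and 7.87 CPM in 2 origanifolium libraries. It was at least 1152-fold higher in andalusicum (edgeR adjusted p = 0.00257). By contrast, a transcript of 893 nt stood at 9.70, 74.2, 119.9 and 5.23 CPM in andalusicum. Libraries 3 and 6 carried most of its counts, and by p it came after the transcripts above (edgeR adjusted p = 0.0320).

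Among clusters at 0 in andalusicum, the highest mean belonged to Cluster-3823.76571, with a transcript of 1129 nt. It stood at 94.8, 77.3, 10.8 and 291 CPM in marifolium, 14214 counts in all. Library 18 was highest and library 17 lowest, and marifolium was at least 4725-fold higher than andalusicum (edgeR adjusted p = 0.0229). Without marifolium 12 and 18 the edgeR adjusted p was 0.0901. Origanifolium held this cluster at 83.2 ± 37.5 CPM, and molle in 1 library at 37.6 CPM. A cluster with a smaller p stood at 75.1, 40.2, 29.7 and 50.9 CPM in marifolium and at 54.9, 44.3, 75.4 and 52.5 CPM in origanifolium. It was at 0 in all 8 andalusicum and molle libraries, and at least 1951-fold higher in marifolium than in andalusicum (edgeR adjusted p = 0.00279, and 0.0353 without marifolium 12 and 18). A transcript of 1399 nt, at 25.3, 39.8, 52.4 and 21.2 CPM in marifolium, was found in the other subspecies only in origanifolium 31, at 20.8 CPM. It was at least 1381-fold higher in marifolium (edgeR adjusted p = 0.00279, and 0.0802 with all 16 libraries in the fit).

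The other subspecies were often at 0 in these clusters too, and not to the same degree. Of the 510 clusters at 0 in marifolium, molle was at 0 in all 4 libraries in 128 (25.1%) and had 10 or more counts in all 4 in 89 (17.5%). Origanifolium was at 0 in 226 (44.3%) and had 10 or more counts in all 4 libraries in 24 (4.71%). Both were at 0 in 83 (16.3%), which were thus counted in andalusicum only among the 16 libraries. Of the 213 clusters at 0 in andalusicum, molle was at 0 in 121 (56.8%) and had 10 or more counts in all 4 libraries in 15 (7.04%). Origanifolium was at 0 in 83 (39.0%) and had 10 or more counts in all 4 in 55 (25.8%). Both were at 0 in 76 (35.7%). Clusters with molle at 0 in all 4 libraries and origanifolium at 10 or more counts in all 4 numbered 22 of these 213, and the reverse combination numbered 0.

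The same was seen in the 262 called clusters measured on both sides, whose choice did not use the molle and origanifolium libraries. On a log2(CPM + 0.1) scale, the mean of molle was nearer to andalusicum than to marifolium in 159 of the 262 (60.7%), against 53.2% of all 34079 clusters. The mean of origanifolium was nearer to andalusicum in 74 (28.2%), against 48.0% of all. On a line with marifolium at 0 and andalusicum at 1, the median position was 0.64 for molle and 0.28 for origanifolium, with 0.58 and 0.44 over all clusters. In 101 of the 262 (38.5%) molle was nearer to andalusicum and origanifolium nearer to marifolium, against 21.9% of all clusters, and in 16 (6.11%) the reverse was found, against 16.7%. Both were nearer to andalusicum in 58 (22.1%, against 31.3% of all clusters). Both were nearer to marifolium in 87 (33.2%), close to the 30.1% of all. Of the 49 clusters still called with clusters at 0 left out, molle was nearer to andalusicum in 33 (67.3%) and origanifolium in 12 (24.5%). Molle differed by direction, and this difference was not tested. It was nearer to andalusicum in 97 of the 139 lower clusters (69.8%) but in only 62 of the 123 higher ones (50.4%), against 53.2% of all. The lean of molle to andalusicum over the 262 thus lay in the lower clusters. For the clusters higher in andalusicum, the most frequent case was a level in both other subspecies nearer to marifolium (52 of 123, 42.3%, against 30.1% of all). For those lower in andalusicum it was molle near andalusicum with origanifolium near marifolium (56 of 139, 40.3%, against 21.9% of all).

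**Figure D4:**
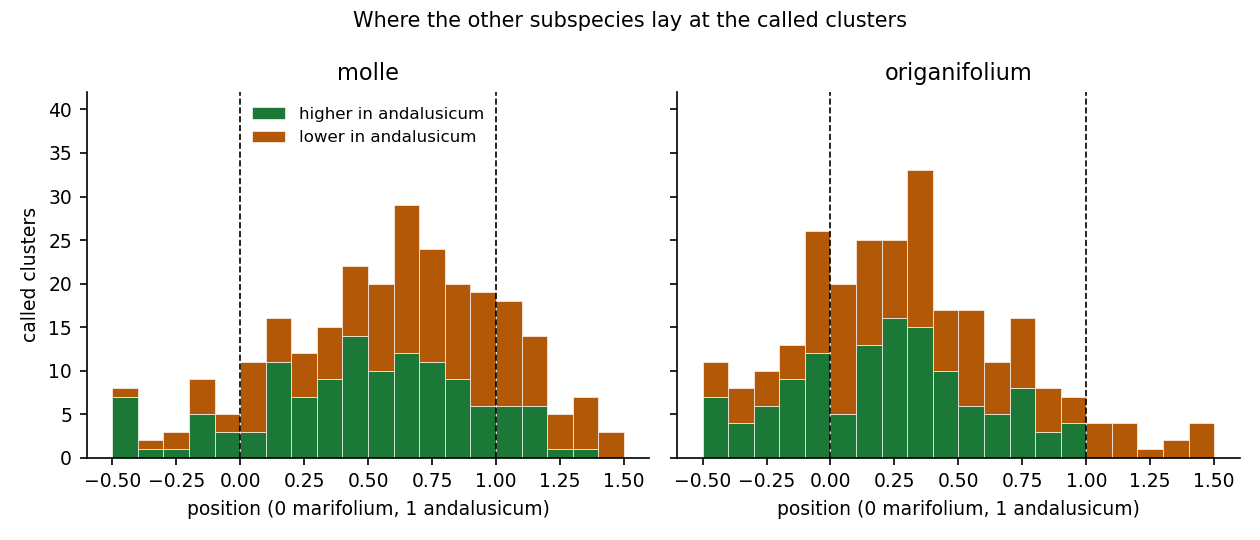
Position of molle (left) and origanifolium (right) on a line from the marifolium mean (0) to the andalusicum mean (1) of log2(CPM + 0.1), for the 262 called clusters with 10 or more counts on each side (y axis, number of clusters, stacked by direction; values beyond the ends are drawn in the end bars). The molle positions centre at 0.64 and the origanifolium positions at 0.28.

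Molle and origanifolium were then compared with each other on their own 8 libraries, which share none with the contrast of andalusicum and marifolium. In that comparison 1582 of 35120 clusters (4.5%) were called. Of the 262 clusters, 250 were tested there and 37 (14.8%) were called. In 36 of the 37, molle differed from origanifolium in the direction in which andalusicum differed from marifolium. Over all clusters with 10 or more counts on each side, 991 of 29945 (3.31%) were called, 705 in the direction of the andalusicum to marifolium difference and 286 against it. Called or not, the direction matched in 177 of the 250 (70.8%), against 54.4% of all. The 262 clusters had a median level of 21.2 CPM, against 5.29 CPM for all, and the part of level in these shares was not tested.

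Few clusters were called between the codes of a subspecies. In an edgeR fit with a mean for each of the 4 codes, andal260 against andal261 gave 0 calls (0%), with 1938 clusters at an unadjusted p under 0.05. In marifolium, marif085 against marif089 gave 3 calls (0.00854%), 1 higher and 2 lower, with 3014 at an unadjusted p under 0.05. The subspecies, as the mean of their codes, gave 535 calls (1.52%), of which andalusicum was higher in 333 and lower in 202. The code contrasts rest on 2 libraries a side and the subspecies contrast on 4, so the counts are not on an equal footing. Limma treated the libraries of each code as a random block, at a fitted correlation of 0.0106 within a code. That fit gave 1101 calls between the subspecies, 738 higher and 363 lower in andalusicum, and 765 of them were among the 932. With a count on each side it gave 485 calls, against 366 by edgeR, and 268 were shared. With the libraries of each code summed to 1 value, which leaves 2 values a side, edgeR called 0 clusters, with 3507 at an unadjusted p under 0.05.

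The number of calls depended on every library. Leaving out 1 andalusicum library lowered the 932 calls to 204, 188, 162 and 167 (without 1, 3, 6 and 8), and leaving out 1 marifolium library lowered them to 304, 437, 349 and 295 (without 12, 15, 17 and 18). Of clusters with 10 or more counts on each side, 83, 76, 62 and 60 were then called for andalusicum and 113, 157, 125 and 100 for marifolium, against 262. Without marifolium 12 and 18 together, 101 clusters were called, 84 higher and 17 lower, of which 77 were among the 932. On both sides 40 were called, 32 higher and 8 lower, of which 17 were among the 262. The share of higher calls was then 83.2%, against 62.1% with all libraries, but the split moved with every pair. It lay between 165 higher with 43 lower (without 12 and 15) and 100 with 35 (without 12 and 17) for the other marifolium pairs, and between 24 with 24 (without 1 and 3) and 6 with 11 (without 3 and 6) for andalusicum pairs. Leaving out another pair of marifolium libraries gave 116 to 208 calls, and leaving out a pair of andalusicum libraries gave 14 to 48, so removing 15 and 17 (116 calls) took away most calls as well. All 262 clusters kept their direction in these 20 settings, which is no sign of stability, since 121 of the 123 and 138 of the 139 had no overlap between the groups to begin with. In the clusters called on both sides, the median log2 difference of marifolium 12 and 18 from 15 and 17 was -0.07 in the 123 higher and 0.12 in the 139 lower clusters, against -0.02 in all.

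**Figure D5:**
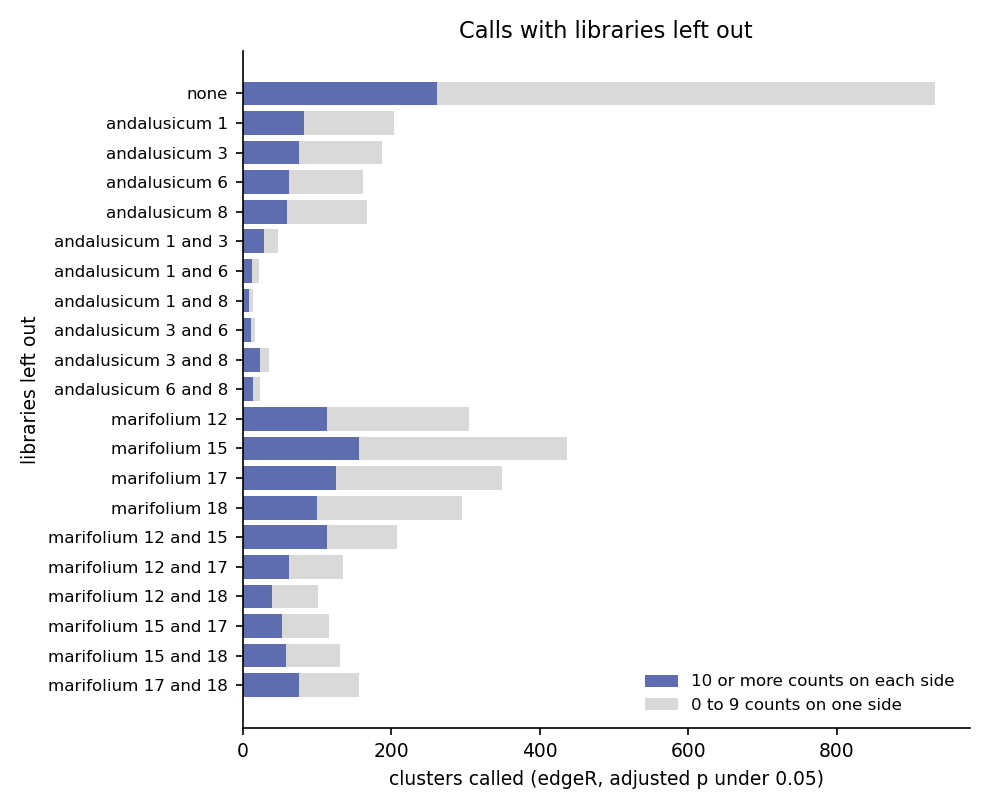
Number of clusters called between andalusicum and marifolium (x axis, edgeR, adjusted p under 0.05) with no library, 1 library or 2 libraries of a subspecies left out (y axis). Dark bars are clusters with 10 or more counts on each side and pale bars the others. Calls fall from 932 to between 162 and 437 with 1 library left out and to between 14 and 208 with a pair left out.

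A core of 37 clusters measured on both sides, 20 higher and 17 lower, was called in all 8 settings with 1 library left out and with the clusters at 0 left out before testing. Their absolute log2 differences ran from 1.62 to 10.60 with a median of 3.97. Of them, 11 (7 higher, 4 lower) were also called without marifolium 12 and 18, at 2.67 to 9.72 with a median of 6.34. The cluster at 10.60 had 24 counts in total in marifolium, and that at 9.72 had 13 in andalusicum. Each thus entered the test mainly through the side where it was high, which largely fixed its direction. Both Cluster-3823.53041 and Cluster-3823.67090 were among the 11. In 17 of the 37, molle was nearer to andalusicum and origanifolium nearer to marifolium, and in 2 the reverse was found. Over all 34079 clusters these cases made up 21.9% and 16.7%. In 12 of the 37 both were nearer to marifolium and in 6 nearer to andalusicum, against 30.1% and 31.3% of all.

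Some called clusters were parts of one assembled gene, and these bear on how a difference is read. Of the tested clusters, 6028 (17.2%) shared an assembler gene name with another tested cluster, as did 131 of the 932 called (14.1%). Among pairs of called clusters under one gene name, 18 moved the same way and 11 in opposite ways. The 11 opposite pairs are not separate cases: they were formed by 12 clusters, and a single 522 nt transcript took part in 4 of them. The counts of an opposite pair, once summed, overlapped between the subspecies in 6 of the 11, and these include all 4 with the 522 nt transcript. In only 2 of the 11 were the mean sums of the subspecies within 2-fold of each other. The marifolium sum of the 4 pairs with the 522 nt transcript was 17.9 ± 19.7 CPM (SD, n = 4). With such a spread, overlap does not show that the sums were close. In the pair with the closest sums, a transcript of 733 nt stood at 12.0 CPM in andalusicum and 2.72 CPM in marifolium. Its partner of 442 nt stood at 0 and 8.41 CPM. Summed, they gave 12.0 ± 2.86 and 11.1 ± 4.72 CPM (SD, n = 4). The sums of this pair thus overlapped, and their difference was not tested. The same gene name also held a called transcript of 852 nt at 7.15 CPM in andalusicum and 48.6 CPM in marifolium, and its sum with the 733 nt transcript was 19.2 ± 6.53 against 51.4 ± 20.3 CPM, without overlap. Both the 442 nt and the 852 nt transcripts also formed opposite pairs with called transcripts of 310 and 213 nt. These stood at 6.54 and 1.61 CPM in andalusicum and at 0 in marifolium. In a pair under another gene name, a cluster at 528 CPM in andalusicum and 39.9 CPM in marifolium (log2 difference 3.65 ± 0.72, edgeR adjusted p = 0.0387) was paired with one at 0.105 and 89.5 CPM. The latter was among the 3 lower clusters with the largest change, at a log2 difference of -9.72 ± 1.08 (edgeR adjusted p = 0.00612, and 0.184 by limma with the code as a random block, which ended the call). It stood at 0, 0.193, 0.0743 and 0.153 CPM in andalusicum and at 84.7, 152, 14.9 and 107 CPM in marifolium. The 1644 nt transcript at 0 in marifolium also belonged to an opposite pair, with a 522 nt transcript at 1.59 CPM in andalusicum and 17.9 CPM in marifolium. Whether such clusters are copies, alleles or splice forms is not given by the files.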

How the data were processed

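RNA of adult leaves was sequenced from poly-A libraries, and the authors deposited 1 table of raw read counts per cluster of assembled transcripts. The submitters' processing notes name FastQC. No source used here gives the assembler, the aligner, the counter, their versions or the use of strand. Transcript names in the deposited list of clusters have the styles of Trinity (70183) and Oases (51826), and Oases-style names record a length. Reads of near-identical copies or of overlapping antisense transcripts may be split or merged between clusters, so single clusters are uncertain in this respect. Groups came from the library titles.

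Clusters with 10 or more counts in at least 4 of the 8 libraries were tested with edgeR 4.0.16 in R 4.3.3 (TMM factors of 0.893 to 1.11, quasi-likelihood F test, no covariate, Benjamini-Hochberg adjustment over the 35119 clusters, threshold 0.05). The SE of a log2 difference is its size over the square root of F. CPM in the text use deposited totals without TMM. Molle and origanifolium were fitted alone in the same way. The test was tested on simulated data with 50 clusters changed at each size. It called 2% at 2-fold, 6% at 4-fold, 32% at 8-fold and 62% at 64-fold, and 7.27% of its calls were false. Few clusters changed in the simulation and none was set to 0 in a subspecies, so these rates do not carry over to the calls above. DESeq2 1.42.0 and limma 3.58.1 were alternatives. The numbers of clusters in each library were compared after thinning to 26934329 counts (seed 1) with an exact permutation test.

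Clusters described singly were called, at 1 CPM or more on the higher side and without overlap between the libraries: the first 3 of each class by p, by size of change and by level, of which a selection is given. Identifiers are printed for 4. Members and lists were chosen with earlier results of these data known. Lists of genes for pathways or cell types could not be applied, since no cluster has a gene name here. Alternatives covered scaling, the count minimum, the tool, the code as a block, summed gene names, and libraries left out.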

Additional observations from a re-analysis of the deposited data

Results flagged for a closer look

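In 66 groups of 4 values examined, 10 held a library far from the other 3 by Dixon's criterion. Some of the 66 held only zeros and could not be flagged. In some flagged groups the other 3 values were all 0, which meets the criterion by construction. The usual chance rate of about 1 in 20 is therefore no yardstick here. Andalusicum 8 had 40373 clusters with 10 or more counts before thinning, against 38039 to 38434 in the other andalusicum libraries. It was also low in the higher cluster with the second smallest p (29.5 CPM against 61.1 to 66.3) and in the most abundant lower cluster (143.7 CPM against 179 to 182), and it held the only counts of andalusicum in a 1192 nt cluster otherwise at 0 (0.459 CPM). Andalusicum 1 was low in the higher cluster with the largest fitted change (92.0 CPM against 335.7 to 384), high in the 1825 nt lower cluster (10.1 CPM against 7.17 to 7.59), and alone above 0 in another lower cluster (1.32 CPM). Andalusicum 6 stood at 21.8 CPM in a cluster at 0 in marifolium, against 29.6 to 30.3 CPM. Single marifolium libraries carried nearly all counts of the lower side in 2 higher clusters: library 17 in a 518 nt cluster (0.552 CPM, others at 0) and library 15 in another (0.298 CPM, others 0 to 0.0341).

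Clusters chosen for having over 95% of their counts in marifolium 12 and 18, nearly all of them outside the tested set, took 1.37% of the counts of library 12 and 2.48% of library 18. Their part in the comparison was not tested beyond leaving out both libraries.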

How the results depend on the processing

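Between 162 and 437 clusters were called with 1 library left out, and 77 to 198 with a count on each side (932 and 366 with all). Without pairs of marifolium libraries the counts were 101 and 50 (12, 18), 116 and 62 (15, 17), 131 and 73 (15, 18), 135 and 73 (12, 17), 157 and 87 (17, 18), and 208 and 133 (12, 15). Without pairs of andalusicum libraries they were 48 and 36 (1, 3), 22 and 17 (1, 6), 14 and 10 (1, 8), 17 and 13 (3, 6), 36 and 26 (3, 8), and 23 and 17 (6, 8). Pairs other than 12 with 18 were chosen after seeing the data, as was the molle to origanifolium fit. DESeq2 gave 2387 (1354 higher, 1033 lower) and 1676, a mean of at least 1 CPM 235 and 110, codes summed 0 and 0, clusters at 0 left out 68 and 68, a test against 2-fold 464 and 117, no filter 226 on both sides, and all 16 libraries 629 on both sides. A minimum of 20 counts gave 319 clusters at 0 in marifolium and 124 in andalusicum. Leaving out 12 and 18 gave 880 and 458, but such numbers cannot fall when fewer libraries have to meet the rule. Marifolium codes gave 0 calls above 1 CPM. With DESeq2 calls, origanifolium was nearer to andalusicum in 35.5%, and opposite pairs numbered 50. The 28 clusters of the naming rule lost their call in 133 of 550 values under alternatives. None reversed, which the rule itself fixes, since it asks for groups that do not overlap. The difference in clusters detected turned from 5328.5 with 1 count to -298.5 with 10. The causes were not tested. No paired analysis was possible because library numbers are not shared between subspecies.

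Of the 5771 clusters under 1 CPM with 10 or more counts on each side, none was called. The parts of depth and of the spread between libraries in this were not tested. The self-test recovered few 2-fold or 4-fold changes. Its rates do not carry over to these data, so the size of difference detectable here was not tested.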

Other observations

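The numbers of clusters seen in a leaf library overlapped between the subspecies. At an equal depth, andalusicum libraries held 50303 ± 4615 clusters with at least 1 count and marifolium libraries 44975 ± 6276 (SD, n = 4 each; two-sided exact permutation p = 0.171, where 0.0286 is the smallest possible). With at least 10 counts the numbers were 37944 ± 753 and 38242.5 ± 4338 (exact permutation p = 0.943). The marifolium libraries ranged more widely, with 43527 clusters in library 12, 34485 in 15, 34905 in 17 and 40053 in 18 at 10 or more counts, whereas the andalusicum libraries lay between 37029 and 38863.

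In the other subspecies, the clusters called on both sides took intermediate shares of the RNA. Those higher in andalusicum took 0.756 ± 0.174% of molle counts and 0.365 ± 0.0690% of origanifolium counts, and those lower took 0.655 ± 0.143% and 0.769 ± 0.0304% (SD, n = 4 each).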
